A study of Caenorhabditis elegans with 2 samples.

Results

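The 201 regions described here come from chromatin immunoprecipitation of the GFP-tagged transcription factor DMD-4 in late embryos of the nematode Caenorhabditis elegans. Out of 652 reproducible regions, these lay away from the starts of protein-coding genes and from the structural RNA genes counted here (tRNA, snoRNA, snRNA and rRNA). Whether DMD-4 itself binds these regions was not tested. They are the reproducible regions on the nuclear chromosomes whose summit, the position of highest signal, fell outside every window from 1000 bp upstream to 200 bp downstream of a protein-coding transcript start. Their summits also lay more than 500 bp from any tRNA, snoRNA, snRNA or rRNA gene. The remaining regions were 280 promoter peaks, 162 near a structural RNA gene and 9 on the mitochondrial genome. The regions were selected on measured values, namely the pooled signal ranking and its reproducibility between replicates, so their signals are given as a description and are not tested.

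Late embryos of whole hermaphrodites of strain OP418 were collected 5 h after worms were synchronized by bleaching of eggs. Their genotype was unc-119(tm4063) III with the transgene wgIs418, from which DMD-4 was made with GFP and FLAG at its C-terminal end, and an antibody to GFP was used for chromatin immunoprecipitation and sequencing (ChIP-seq). There were 2 biological replicates of this 1 group and no other group, so nothing is compared between conditions. Both replicates carry the transgene, all cell types of the embryo are mixed in each library, and reads of a dmd-4 copy on the transgene and of the gene itself cannot be told apart. A control library is named for the peak calling and its regions were not used here, the age of the embryos is recorded as unknown, and the depth of the libraries is unknown because the files give no read counts.

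DMD-4 belongs to the DM-domain proteins, named after Doublesex and MAB-3, whose zinc-binding domain contacts the minor groove of DNA. In C. elegans these proteins are known for sex differences in the body and the nervous system, and DMD-4 for its persistence in certain sensory neurons of hermaphrodites and its loss there in males. Enhancers, the regulatory elements away from a gene start, are commonly found in long introns and in the space between genes, and compact genomes such as that of the worm also hold many small RNA genes inside introns of other genes.

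A few sequences show what the stronger of these regions hold. The first lies over the strongest region, at the non-coding RNA gene F36H1.17, and capitals mark a match to the B box consensus of tRNA promoters, which was searched on both strands and is here on the minus strand (it was in 0.995% of the 201 windows and 0.602% of the other candidates). The next is upstream of hbl-1 with the 6-mer GAGAGA (or its reverse complement) in capitals, the third is the intergenic region at III:13068311-13068760 with CGCACA in capitals, and the fourth is from the lin-42 intron with GCGCGC in capitals. The last has no capitals and shows repeated sequence under an intergenic region on chromosome V. Each covers 60 bp on either side of the summit, on the plus strand of WBcel235 (ce11), as in the RefSeq genome sequence.

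F36H1.17, IV:11026139-11026259: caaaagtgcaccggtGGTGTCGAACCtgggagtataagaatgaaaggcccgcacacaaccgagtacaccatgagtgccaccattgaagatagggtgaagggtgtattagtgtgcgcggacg
Upstream of hbl-1, X:5812110-5812230: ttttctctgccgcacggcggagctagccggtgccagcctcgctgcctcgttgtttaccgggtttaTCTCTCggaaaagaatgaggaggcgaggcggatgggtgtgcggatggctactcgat
Between F54F12.1 and Y39E4B.6, III:13068476-13068596: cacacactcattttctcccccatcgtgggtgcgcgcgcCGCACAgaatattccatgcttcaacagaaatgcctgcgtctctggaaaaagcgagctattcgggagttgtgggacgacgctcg
lin-42 intron, II:1247043-1247163: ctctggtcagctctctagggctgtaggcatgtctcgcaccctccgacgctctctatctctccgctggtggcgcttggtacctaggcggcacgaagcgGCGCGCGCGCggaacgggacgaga
Between B0238.9 and Y49G5A.1, V:5284697-5284817: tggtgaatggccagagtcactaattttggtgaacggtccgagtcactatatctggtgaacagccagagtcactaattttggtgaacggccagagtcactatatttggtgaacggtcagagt

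Introns and the space between genes held most of the regions. By the position of the summit, 80 regions (39.8%, 95% interval 33 to 46.9) lay in an intron of a protein-coding gene, 76 (37.8%, 31.1 to 44.9) lay between genes, 21 (10.4%, 6.58 to 15.5) in an exon and 24 (11.9%, 7.80 to 17.2) in a non-coding gene outside any protein-coding one. The intervals are exact (Clopper-Pearson) and hold for the counting of regions alone, since no region is a replicate of another. The exonic regions comprised 12 in coding sequence and 9 in other exon sequence, and the hosts of the 24 were 20 ncRNA genes, 3 lincRNA genes and 1 pseudogene.

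The background for these counts is the list of 30000 candidate regions called on the pooled replicates. Of 29988 nuclear candidates, 2.14% entered the reproducible list. The share was 1.03% for the 19569 candidates outside promoters and structural RNA genes, and 2.89% for the 9694 promoter candidates. Within the first of these, 0.979% of intronic, 1.52% of intergenic, 0.376% of exonic and 2.97% of non-coding gene candidates were kept. The comparisons below are with 19285 other candidates of the same territory, which leave out 83 unselected ones that touch a reproducible peak. Exons made up 28.8% of these, against 10.4% of the regions. Non-coding genes made up 4.04% against 11.9%, the space between genes 25.4% against 37.8%, and introns 41.8% against 39.8%. In the top 652 of replicates 1 and 2 taken alone, 188 and 210 regions were of the same territory. Exons made up 6.915% and 10.95% of these. Since the same ranking chose the regions, these shares are descriptions.

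**Figure D1:**
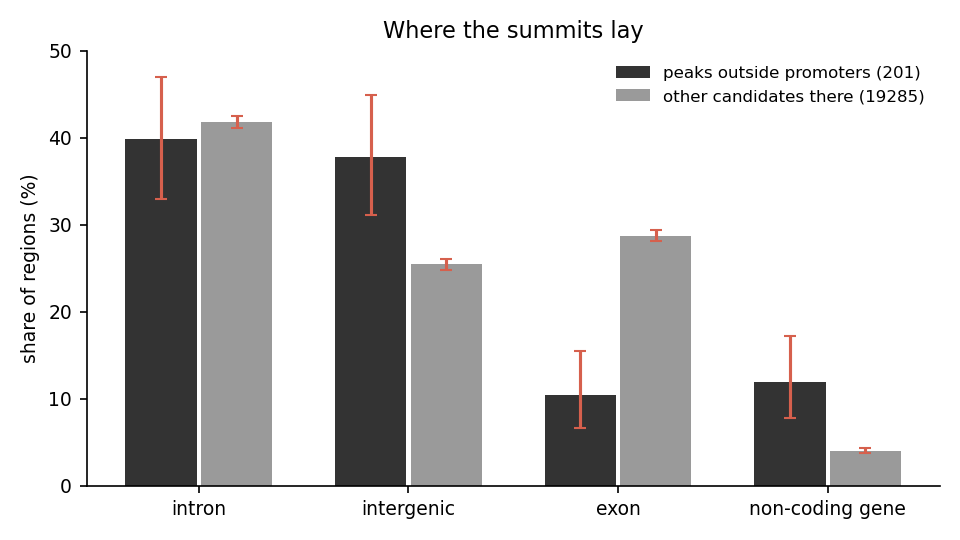
Share of regions (%) by where the summit lay, for the 201 peaks outside promoters and structural RNA genes (dark bars) and the other 19285 candidates in the same territory (grey bars), with exact 95% intervals as error bars. Exons held 10.4% of the peaks and 28.8% of the other candidates, while introns held 39.8% and 41.8%.

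The deposited signals of the 201 regions ran from 106.5 to 382.2 with a median of 125.7, and the pooled ranks from 18 to 650. Their q was at most 0.05 in 134 regions. Medians were close across locations, at 124.2 in introns, 126.5 between genes, 114.6 in exons and 130.9 in non-coding genes. The q threshold was met by 76.3% of intergenic, 70.8% of non-coding gene, 63.8% of intronic and 38.1% of exonic regions. Exonic regions were thus the lowest by both measures.

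The 5 weakest regions lay in cas-1 (signal 107.0), lag-1 (106.8), elf-1 (106.8), W03D8.3 and prhg-1 (both 106.5). The 5 candidates of the same kind just below lay in introns of lin-2 (106.4), rnp-8 (106.2), daf-5 (105.5) and pad-1 (105.2) and at IV:11027475-11027924 (105.5). The last region inside and the first candidate outside thus differed little in signal.

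All 201 regions overlapped a candidate region of replicate 1 and one of replicate 2, as did 279 of 280 promoter peaks. The list was chosen for reproducibility between these replicates, so this overlap is largely set by the selection and is no separate support. Of the 201 regions, 144 were among the 652 strongest of replicate 1 and 163 among the 652 strongest of replicate 2. In all, 113 (56.2%, 49.1 to 63.2) were among both and 7 among neither. For promoter peaks the share in both was 66.4% (60.6 to 71.9). By location it was 64.5% between genes, 53.8% in introns, 50% in non-coding genes and 42.9% in exons. The median rank of the regions was 425 in replicate 1 and 375 in replicate 2. Signals of a region are comparable within a replicate's list and not as levels between lists.

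A few regions were high in 1 replicate and low in the other. The region in an intron of sfa-1, which encodes a splicing factor, ranked 271 in replicate 1 with a signal of 69.1 and 6419 in replicate 2 with 31.1. Ranks of 215 and 1791 were found in an intron of the elongation factor gene ell-1, and of 347 and 2708 in an intron of pes-4. The reverse held for X:14840949-14841398, an intergenic region between dpf-2 and egrh-1 and 20678 bp downstream of the dmd-4 start, with 27.9 (rank 5823) in replicate 1 against 101.3 (rank 168) in replicate 2. Ranks of 2520 and 342 were found at the ncRNA gene T04C12.29. In a coding exon of pks-1, a polyketide synthase gene, replicate 1 had a signal of 46.5 (rank 831) and replicate 2 one of 115.6. These 6 regions had the most unequal ranks.

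**Figure D2:**
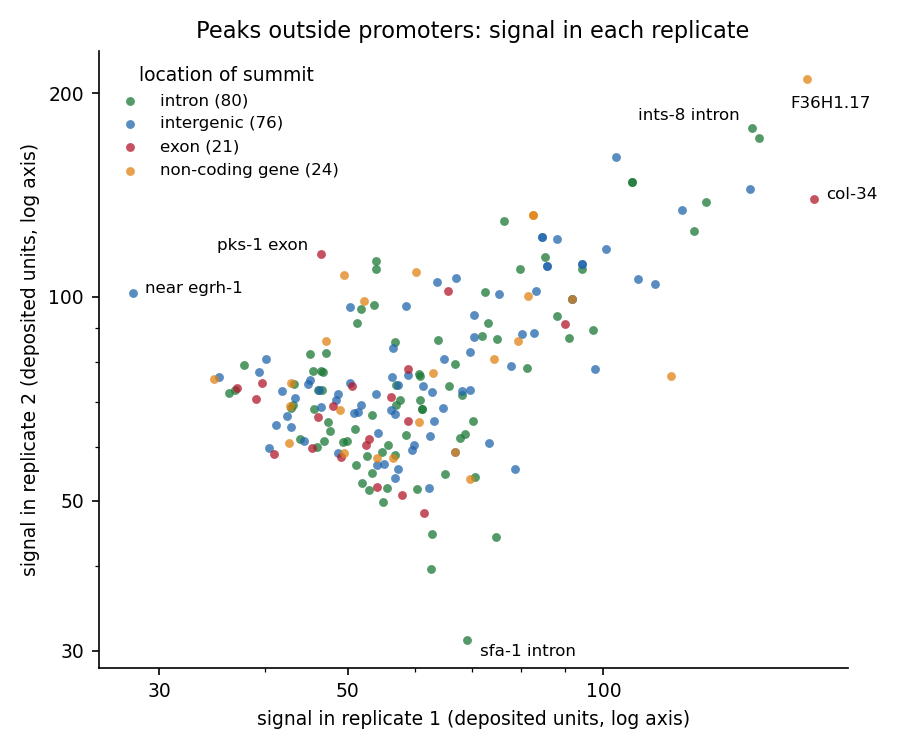
Deposited signal of the 201 regions in replicate 1 (x axis) and replicate 2 (y axis), both on log axes, with 1 point per region coloured by location. F36H1.17, with 173.4 and 210.0, is at the top, and the sfa-1 intron and the region near egrh-1 lie far from the other points.

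The strongest region of all lay at a short non-coding RNA gene. It was at F36H1.17 (IV:11026049-11026287), an ncRNA gene of 89 bp, with a signal of 382.2, and ranked 25 in replicate 1 and 20 in replicate 2. The microRNA gene cel-mir-51 lay 87 bp from its summit. Non-coding genes recurred among the regions counted as intronic as well. Including genes nested in a protein-coding host, 41 summits (20.4%, 15.1 to 26.6) lay inside an annotated ncRNA, lincRNA, antisense RNA or pseudogene, against 5.42% (5.11 to 5.75) of the other candidates. Among intronic regions alone it was 16 of 80 (20%, 11.9 to 30.4) against 2.93% of other intronic candidates.

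Genes for the RNAs of RNase P and of the signal recognition particle (SRP) lay under the summits of 4 regions and beside a further one. RNase P trims the leading end of tRNA precursors, the SRP directs secreted proteins to the endoplasmic reticulum, and in animals RNA polymerase III makes both RNAs. Both were annotated as ncRNA and hence were not removed by the structural RNA classes. The strongest intronic region, in an intron of ints-8, a subunit gene of the Integrator complex, had its summit 21 bp inside rpr-1, the RNase P RNA gene (I:13463955-13464207). Its signal was 327.9, with 149.6 (rank 35) in replicate 1 and 177.7 (rank 31) in replicate 2. All SRP RNA genes named srpr in the annotation had a candidate. At srpr-2.2, inside an intron of the kinesin gene klp-6 (III:5031410-5031708), the signal was 274.8, with ranks 54 and 66. At srpr-2.1 (III:5211220-5211518) it was 180.3, with ranks 183 and 171.

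The other SRP RNA genes were weaker. At srpr-1.2, inside an intron of the choline kinase gene ckb-2, the signal was 122.8, with ranks 545 and 491. A region of signal 111.6 reached into srpr-1.1, with its summit beyond the gene's end in a coding exon of pals-26 and ranks of 747 and 442. The candidate at srpr-3 had 78.3 at pooled rank 1755 and was not reproducible. The 201 bp windows at the klp-6, srpr-2.1 and ckb-2 summits each had 1 to 3 near copies (90% identity or more over at least 80% of the window), so the split of reads between these genes is uncertain. The related RNase MRP RNA gene mrpr-1 carried a promoter peak (196.0), and yrn-1, a Y RNA gene, had no candidate within 500 bp.

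MicroRNA genes lay within 500 bp of 8 summits (3.98%, 1.73 to 7.69), against 0.441% (0.352 to 0.545) of the other candidates. MicroRNAs are short RNAs that silence messenger RNAs, and the mir-35 and mir-51 families act in the worm embryo. Beside cel-mir-51, the genes of the mir-51 family were cel-mir-52 at IV:14033581-14034062 (signal 191.3, ranks 75 and 336) and a cluster of cel-mir-54, cel-mir-55 and cel-mir-56. That cluster, in an intron of F09A5.3 on X, lay beside 2 regions with signals of 167.1 and 110.4. The regions near cel-mir-80 (162.3), cel-mir-2 in an intron of ppfr-1 (132.0), cel-mir-35 and cel-mir-36 (128.6) and cel-mir-42 to cel-mir-44 (109.6) completed the 8.

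Further non-coding or non-translated hosts among the strongest were F13D11.22 (X:5811945-5812394, signal 211.9), the ncRNA gene Y37A1B.330 at cel-mir-52, an exon of Y69H2.9 (173.7), an exon of egl-30 (171.6) and D2024.14 (166.6). EGL-30 is the Gq alpha subunit, which drives synaptic release. The egl-30 region ranked 309 and 162.

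The remaining strong intronic regions were spread over genes of many kinds. An intron of Y39A1C.1 (III:10856896-10857168) held a region of signal 324.3 with ranks 33 and 36, which lay at -45600 bp from the start of unc-119, the gene mutated in the strain. The chemoreceptor-family gene srt-52 (V:53289-53738) held 258.3, ranks 64 and 91. In pqn-41, which encodes a glutamine-rich protein that acts in the death of the male linker cell, the strongest of 5 regions had 249.1. Introns of Y111B2A.12 (207.0), W05H12.1 (206.7), mom-1 (194.9), lin-14 (186.5) and the alpha-tubulin gene tba-7 (184.1) followed. MOM-1 acts in the secretion of Wnt ligands. Ranks of these last 5 were between 85 and 235 over both replicates.

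Intronic regions lay in longer introns than the other candidates did. Over the 80 regions the median intron length was 3784.5 bp (range 238 to 14129), against 935 bp over the other 8055 intronic candidates. Several regions share an intron, as in pqn-41, and with each intron counted once the medians were 2818 bp over 73 introns and 756 bp over 6368. Introns over 2000 bp held 51 of the 80 regions (63.8%, 52.2 to 74.2) against 30.1% of the other candidates, and introns over 5 kb held 40% against 15.5%. The first intron of the host held 30 regions (37.5%, 26.9 to 49) against 23.7%. Among introns over 2000 bp the first one held 43.1% (29.3 to 57.8) of the regions and 36.4% (34.5 to 38.4) of the other candidates, with intervals that overlap. The median intron length also fell down the ranking below the list, among candidates that were not selected, from 2660 bp at pooled ranks 653 to 1000 to 906 bp at ranks 20001 to 30000.

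**Figure D3:**
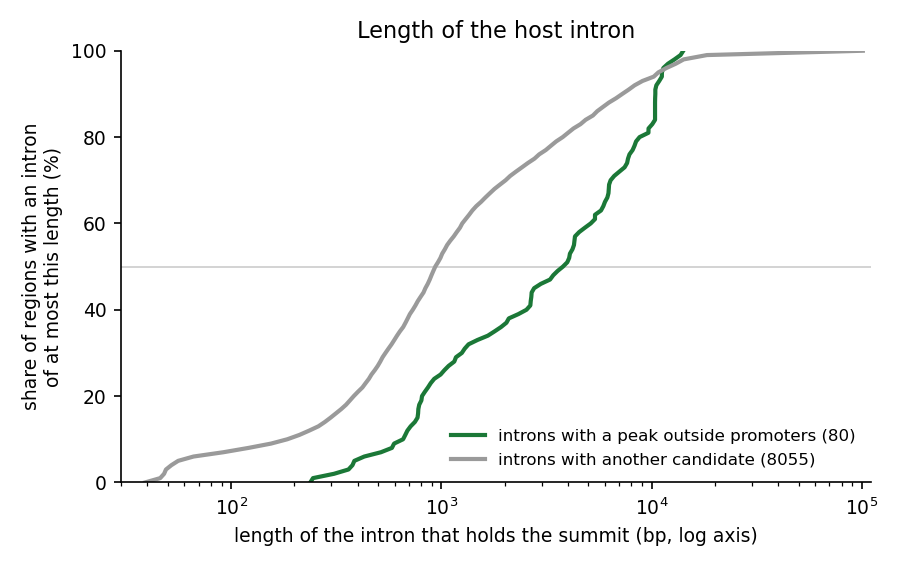
Cumulative share of intronic regions (%) by the length of the intron that holds the summit (bp, log axis), for the 80 peaks (green) and the 8055 other intronic candidates (grey). The green line crosses 50% at 3784.5 bp and the grey line at 935 bp.

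The 10 strongest intergenic regions lay 874 to 7247 bp from the nearest protein-coding start. At V:5284674-5284833, between B0238.9 and Y49G5A.1, the signal was 273.6, with ranks 36 and 57, over the repeated sequence shown above. III:13062567-13062732 had 260.5 (ranks 71 and 75) and III:13068311-13068760 had 214.0 (ranks 90 and 146), both in the gap between the divergent genes F54F12.1 and Y39E4B.6. X:11093942-11094391, downstream of W04G3.11 and W02H3.3, had 257.4 (ranks 107 and 43). V:12510063-12510286, between nlp-46 and T28H10.2, had 223.9, with 100.7 in replicate 1 and 117.8 in replicate 2. The nearest of these flanking genes, T28H10.2, lay 538 bp from the summit.

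The next were V:1197215-1197664 between wrb-1 and Y50D4A.6 (213.7), IV:1687142-1687591 between Y41D4B.24 and bus-2 (211.2), and III:10810918-10811367 between klp-7 and the calcium pump gene sca-1 (209.0). KLP-7 is a kinesin that shortens microtubules. III:3801411-3801860 between mtm-3 and xbx-5 (205.5) and I:933462-933681 between prhg-1 and nas-30 (204.2) closed the 10 strongest. Of all 76 intergenic regions, 18 lay upstream of both neighbours, 12 downstream of both and 46 upstream of one and downstream of the other. The distance to the nearest protein-coding start, over all 201 regions, had a median of 2220 bp and a maximum of 15224 bp, and 29 regions (14.4%) were more than 5 kb away.

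Regions came in groups at a few genes. The 201 regions formed 193 separate loci, because 8 pairs overlapped, and both regions of such a pair take the same replicate candidate. In all, 53 regions lay within 10000 bp of another, in 22 groups. Just 4 groups held 3 or more separate loci, at hbl-1, lin-14, pqn-41 and ppfr-1, a gene for a protein phosphatase regulatory subunit. The genes with 2 or more regions inside them were pqn-41 (5), lin-14 and ppfr-1 (3 each) and F09A5.3, let-526, T28F4.1, dmd-4 and herc-1 (2 each). The 5 in pqn-41 formed 3 separate loci, as many as in lin-14 or ppfr-1. LET-526 is a subunit of the SWI/SNF chromatin remodelling complex.

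Upstream of hbl-1 there were 5 regions. HBL-1 is the worm's Hunchback-like zinc-finger protein, which with LIN-14 sets the timing of larval cell fates. The regions lay 9972, 9769, 5592, 3734 and 2006 bp upstream of its start, with signals of 211.9, 124.5, 117.6, 108.9 and 136.1, and the outermost pair overlapped and share their replicate values. Each summit was inside an annotated ncRNA gene. In replicate 1 their ranks were 179, 179, 452, 1155 and 790, and in replicate 2 they were 79, 79, 725, 634 and 258. The distal pair was thus the highest in both replicates. The regions at 3734 and 2006 bp were outside the top 652 of replicate 1, and the one at 5592 bp outside that of replicate 2.

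At lin-14, a region of signal 186.5 lay 1963 bp into the gene (ranks 158 and 209), and others lay at 7780 bp (141.0, ranks 261 and 517) and 8864 bp (148.9, ranks 328 and 257). Both of the latter were in an intron of 11174 bp. In pqn-41 all 5 regions lay in an intron of 10372 bp, 15359 to 19376 bp from the gene's start, and formed 3 separate loci because some overlapped. The strongest ranked 93 and 52, and the others had signals of 108.0 to 128.0. Introns of dmd-4 itself held a region at 2665 bp (138.8, ranks 370 and 420) and another at 3763 bp (118.3, ranks 899 and 459). The dmd-4 gene is also on the transgene, and the share of its reads from there was not tested.

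**Figure D4:**
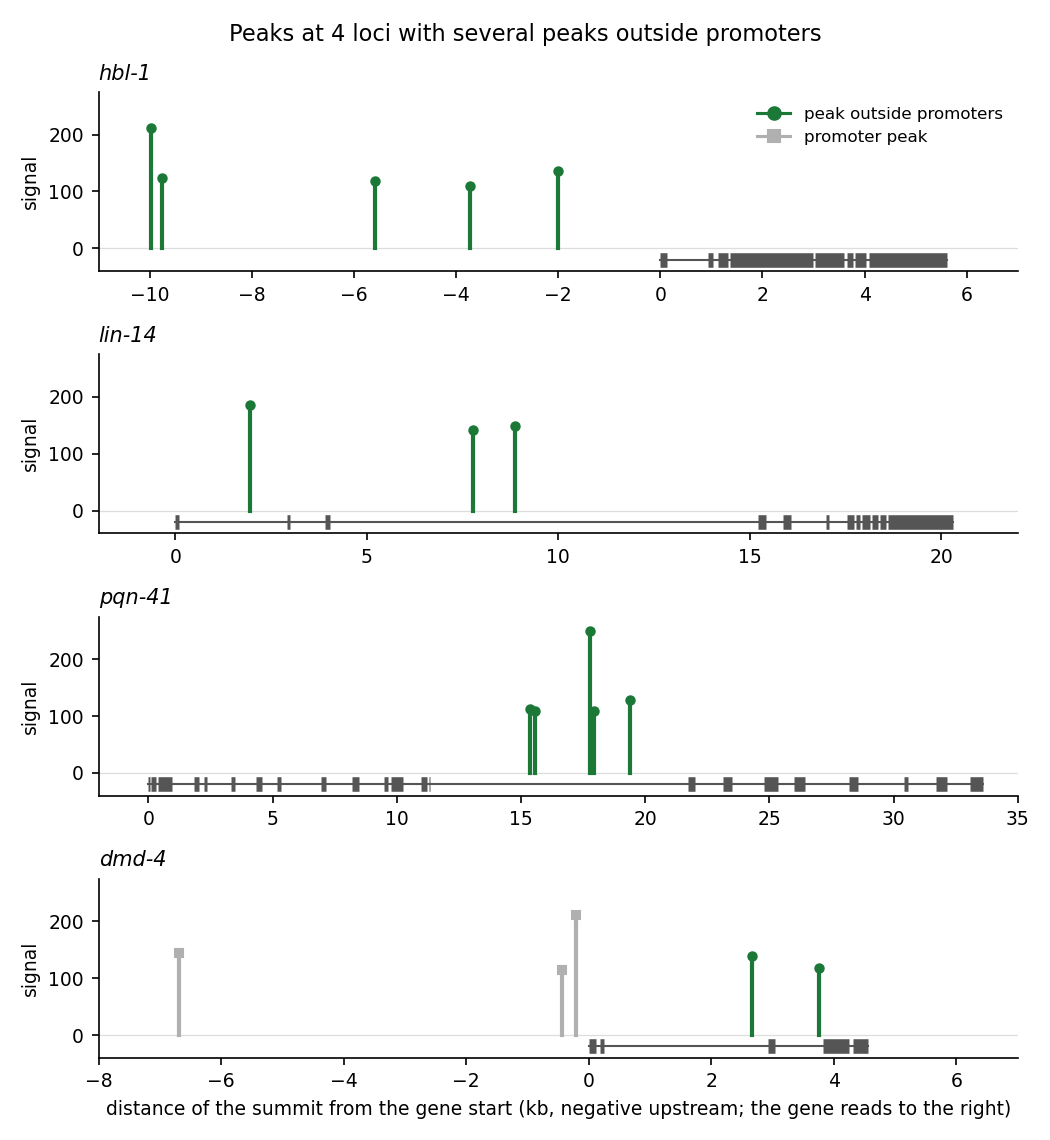
Deposited pooled signal of reproducible peaks (vertical lines) against the distance of the summit from the gene start (kb, negative upstream) at hbl-1, lin-14, pqn-41 and dmd-4, with exons as boxes under each axis. Green circles are peaks outside promoters and grey squares promoter peaks, and the 5 green peaks at hbl-1 all lie upstream, at 2006 to 9972 bp.

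Hosts of intronic or exonic regions were 88 of 19865 protein-coding genes (0.443%), and hosts or nearest neighbours were 255 (1.28%). The gene lists are to be read against these shares, and a neighbour is the nearest protein-coding gene on either side at any distance. A list of 13 heterochronic genes, chosen after values had been seen, held 3 hosts and hbl-1 as a neighbour (30.8%). The hosts were lin-14, daf-12, a nuclear hormone receptor (160.9, ranks 240 and 242), and lin-42, the worm's Period homologue (144.1, ranks 443 and 260). A list of 16 Notch pathway genes, chosen likewise, held 2 hosts (12.5%), sel-8 (145.0, ranks 297 and 303) and lag-1 (106.8, ranks 873 and 657), which encode partners in the nuclear complex of Notch. Since both lists were made from these regions, their shares are no evidence of their own. The lists in the next paragraphs were written with earlier results of these data known, and no share allows for gene length. None of 59 hedgehog-related genes was a host or neighbour.

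Cuticle and epidermal genes, one of the longer lists, gave 7 hosts of 217 (3.23%) and 3 more as neighbours (4.61% in all). A coding exon of the cuticle collagen gene col-34 held the second strongest exonic or non-coding region (IV:4243867-4244316, signal 321.9), with ranks 22 and 65. Further collagen coding exons were those of col-43 (112.7), col-150 (110.9), col-37 (110.1) and sqt-3 (109.3), so that 5 of the 12 coding-exon regions were in collagen genes. The share in collagen genes was not counted for the 4725 other coding-exon candidates, so the count shows no excess. The windows of these 5 regions were 56.2% to 68.2% G or C. The sqt-3 window has 1 near copy elsewhere, and collagen genes share repeated Gly-X-Y sequence, so the placement of reads among them is uncertain. The other hosts were ajm-1 (144.1) and dlg-1 (133.0), which encode proteins of the epithelial junction.

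Signalling genes gave 5 hosts and 2 neighbours of 114 (6.14%), the strongest being mom-1, egl-30 and the region 3037 bp from sma-9 (165.2), which encodes a Schnurri-like factor of BMP signalling. Of 43 synaptic and pan-neuronal genes, unc-104, the synaptic vesicle kinesin gene, was a host (163.0, ranks 214 and 251), and snt-1 (139.9) and dgk-1 (132.8) were among 3 neighbours (9.3% in all). The region of signal 139.9 lay 11041 bp from snt-1 and nearer to egl-27 (7534 bp), which is a neighbour on the chromatin list below. Muscle genes gave lev-11 (tropomyosin, 113.8), unc-22 (twitchin, 109.9) and, as a neighbour, act-1 (actin, 137.6), of 44 (6.82%). Axon guidance and adhesion genes gave vab-1, the ephrin receptor gene (114.8), zig-11 (115.9) and, as a neighbour, unc-51 (120.6), of 94 (3.19%).

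Of 164 chromatin and transcription genes, pqn-41 and the Mediator subunit gene mdt-26 (154.5) were hosts and 4 more were neighbours (3.66%), with hda-4 (153.9, the region that also neighbours lgc-53) the strongest of these. This list leaves out let-526, the SWI/SNF subunit gene named above, which was a host of regions with signals of 164.7 and 157.5. Of 91 genes on a homeobox list, unc-62 was a host (126.7), lin-11 a neighbour at 12934 bp (159.4) and hbl-1, which the list includes although it encodes a zinc-finger protein, another (3.3%). Of 274 nuclear hormone receptor genes, daf-12 and nhr-3 (143.6) were hosts and nhr-17 (121.7) a neighbour (1.09%), close to the 1.28% of all genes. Of 10 DM-domain genes dmd-4 was the host named above. Cytoskeleton and motor genes (84) gave klp-6, tba-7 and the neighbours klp-7 and unc-70 (4.76%). Of these, the klp-6 summit lay inside srpr-2.2, the tba-7 summit inside ncRNA genes, and the klp-7 neighbours on a dispersed repeat described below. Of 271 ion channel and receptor genes cng-2 (163.2), lgc-53 (153.9) and unc-63 (123.9) were neighbours and none was a host (1.11%), and of 1303 chemoreceptor genes srt-52 alone was a host (0.0767%).

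Chromosome X held 47 of the regions (23.4%, 17.7 to 29.9), against 16.4% of the other candidates, and chromosome II held 19 (9.45%, 5.79 to 14.4) against 16.6%. The counts on III, V, I and IV were 39, 38, 34 and 24. The chromosome arms, taken as the outer 0.25 of the length at each end, held 47.8% (40.7 to 54.9) of the regions and 59.8% of the other candidates, and 43.9% of promoter peaks. The arm share was 46.8% on X and 48.1% on autosomes.

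The regions were richer in G and C than the other candidates. In windows of 201 bp on the summit the median content was 49.3%, against 39.8% in the other candidates and 46.3% in promoter peaks. It fell steadily below the list, from 48.3% at pooled ranks 653 to 1000 to 37.3% at ranks 20001 to 30000. Sequence masked as repetitive or of low complexity in the RefSeq genome covered more than 50% of the window in 10.4% of regions, 24.5% of other candidates and 20.4% of promoter peaks.

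In all 9 short motifs were counted within 100 bp of the summit on both strands, each at most once per region, besides the B box. GAGAGA was present in 90 regions (44.8%, 37.8 to 51.9), 14% of other candidates and 32.9% of promoter peaks. CGCACA was present in 43 (21.4%, 15.9 to 27.7), 5.44% and 25.4%. GCGCGC was present in 34 (16.9%, 12 to 22.8; 11.2% without replicate 2), 2.72% and 19.6%. At least 1 of the 3 was present in 61.7% of regions and 20.3% of other candidates. The DM-domain core ACATTGT was present in 6 regions (2.99%, 1.10 to 6.38), 2.74% of other candidates and 2.86% of promoter peaks. The G and C rich GGGCGG was in 12.9% of regions and 5.56% of other candidates, CACGTG in 4.48% and 4.46%, and GTTCGA in 4.98% and 7.05%. A match is a string of letters in a window and does not show that a protein is bound to it.

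Since the regions and the other candidates differ in base composition, motifs were also counted in windows with 45% to 55% G or C. There GAGAGA was in 53.9% (43.8 to 63.8) of 102 regions and 20.2% of other candidates, CGCACA in 21.6% and 8.12%, and GCGCGC in 14.7% and 5.09%. GGGCGG was there in 5.88% (2.19 to 12.4) and 8.88%, so its order turned. In windows with at most 10% masked sequence GAGAGA was in 42.7% (32.3 to 53.6) of regions and 18.2% of other candidates. Promoter peaks had it in 54.2% (42.9 to 65.2) of such windows and in 47.1% (37.8 to 56.4) of those in the G and C range. Their order against the regions thus differed between these counts, with intervals that overlap in both. GATA-type TGATAA, by contrast, was in 5.47% of regions and 13.7% of other candidates, and in 2.94% (0.611 to 8.36) and 8.18% in the G and C range given. TTAGGC, the telomere repeat unit, was in 3.48% and 7.31%.

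By location GAGAGA was in 62.5% of regions in non-coding genes, 47.4% between genes, 45% in introns and 14.3% (3.05 to 36.3) in exons. In the other candidates these shares were 20.5%, 18.2%, 12.5% and 11.7%. An unbroken GA or CT dinucleotide run of at least 12 bp was found in 6.47% (3.49 to 10.8) of regions and 0.856% of other candidates. In promoter peaks the share was close to that of the regions, at 5.36% (3.03 to 8.68). The longest run among the regions, 22 bp, was at IV:16498011-16498460.

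The motifs differed in how they sat around the summit. With each match placed by its centre, GCGCGC was within 50 bp of the summit in 13.4% of regions and from there to 100 bp in 4.48%. For CGCACA these shares were 13.9% and 9.45%. For GAGAGA they were 28.9% and 30.3%, and 25.4% in the interval that ends at 200 bp. In the other candidates GCGCGC was in 1.38% within 50 bp, 1.51% from there to 100 bp and 0.902% in the interval that ends at 200 bp, and GAGAGA in 7.96%, 8.01% and 7.08%. Matches to GAGAGA were thus spread over the width of the regions, and those to GCGCGC were most frequent within 50 bp of the summits.

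Below the end of the list, among candidates that were not selected, the motifs fell with rank. The median G and C content fell over the same intervals, from 48.3% to 37.3%, and motifs were not counted by rank at matched content. At pooled ranks 653 to 1000 GAGAGA was in 47.8% (39.7 to 55.9) of 157 candidates of the same kind, about the level of the regions themselves, and it fell through 28.4% at ranks 1001 to 2000 to 11.6% at ranks 20001 to 30000. CGCACA was in 10.2% (5.94 to 16) at ranks 653 to 1000 and 5.17% in the last interval, and GCGCGC in 6.37% (3.10 to 11.4) and 2.17%. For the latter motifs the level was lower just below the list than in it. The share of exonic candidates was 18.5% at ranks 653 to 1000, 31.1% at ranks 2001 to 5000 and 28.6% in the last interval. In each replicate's own ranking GAGAGA was in 46.3% and 52.4% of the regions outside promoters within the top 652 of replicates 1 and 2, and in 13.1% and 14.1% of the rest. For GCGCGC these shares were 11.2% and 16.2%, against 2.5% and 2.58% of the rest.

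**Figure D5:**
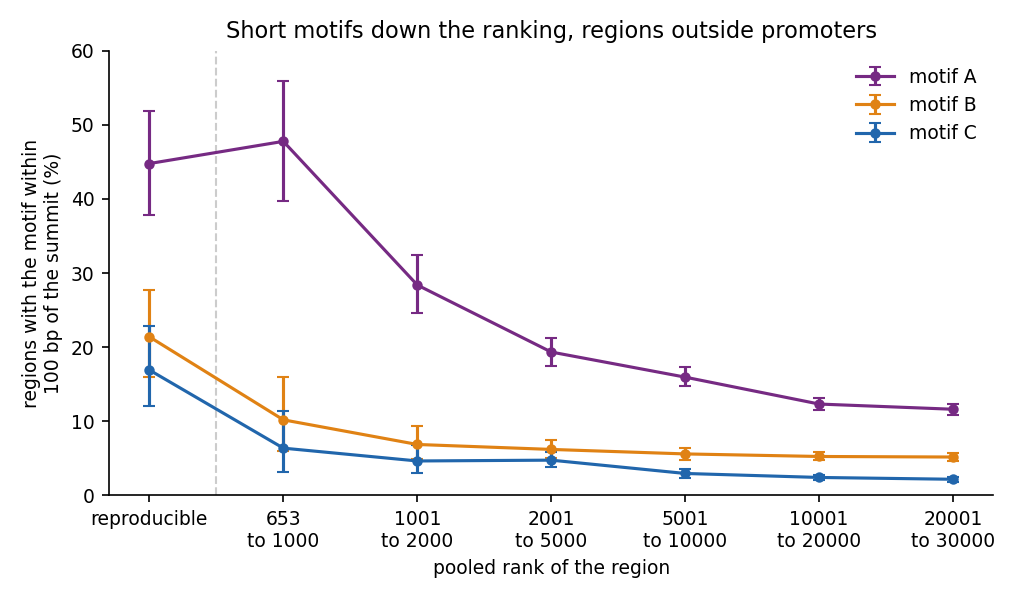
Share of regions outside promoters (%) with a motif within 100 bp of the summit, for the 201 reproducible regions and for weaker candidates in intervals of pooled rank, with exact 95% intervals as error bars. Motif A is GAGAGA, motif B CGCACA and motif C GCGCGC, and GAGAGA stays at 47.8% in ranks 653 to 1000 before it falls.

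Some regions lay on sequence present elsewhere in the genome. A near copy, of at least 90% identity over 80% of the 201 bp window, was found for 13 regions (6.47%, 3.49 to 10.8) and 3.82% of other candidates. With 80% identity the shares were close, at 9.45% (5.79 to 14.4) and 9.11%. More than 10 copies at 90% identity were found for 9 regions (4.48%, 2.07 to 8.33) and 0.970% of other candidates. Among promoter peaks the share was 2.86% (1.24 to 5.55). A dispersed repeat carried 5 of the 9, in an intron of ell-1 and between genes at V:1197215-1197664, III:10810918-10811367, III:10811124-10811573 and IV:12621376-12621825. Each had 16 to 30 copies, 15 to 25 of which coincided with pooled candidates and 9 to 12 with reproducible peaks. The regions of this repeat on chromosome III overlapped and formed 1 locus. A pair of other repeats carried the remaining 4. The first was at V:5284674-5284833 and V:5284131-5284281 (37 and 29 copies, 10 of each within 20000 bp), and the second at V:12510063-12510286 and IV:11070954-11071157 (12 and 11 copies). Of the 37 copies, 5 coincided with a candidate. How reads with several matches were placed is not given in the sources used here, so the signal of a single copy is uncertain in all 13.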

How the data were processed

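DMD-4-GFP ChIP-seq region lists on ce11 (WBcel235) were used for 2 replicates, for the pooled candidates and for the reproducible list. The authors' deposited lists give a signal value per region, and a −log10 q-value, of which those of the pooled and reproducible lists were used, in the column order of the narrowPeak format named in the deposited file listing. The reproducible regions come from the irreproducible discovery rate procedure per the labels. The aligner, the caller and the threshold were not given in the sources used here. Each replicate list and the pooled list held 30000 candidates, and no depth is given.

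From these, summits were classed with Ensembl release 115 in the order coding exon, other exon, intron, non-coding gene, intergenic. Replicate values are those of the strongest candidate overlapping by at least 1 bp. Copies were searched with BLAST+ 2.17.0, and tables and exact intervals were made with Python 3.11.15, pandas 2.3.3 and scipy 1.17.1. No test was run, because 1 group of 2 replicates was ranked to choose the regions and set tests over regions were not used. Overlaps and motif searches were tested on simulated data. The coding exon class, the promoter window and the closeness to tRNA genes were checked on points placed by the annotation. The other location classes were not checked in this way. Alternatives are given in the closing section, and lists on ce10 were not used.

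Regions named are the 10 strongest intronic, 10 strongest intergenic and 8 strongest exonic or non-coding ones, all near dmd-4 or unc-119, the 3 with the most unequal replicate ranks in each direction, up to 3 per gene list and 5 on either side of the list's end. Regions at RNA genes, microRNA genes, collagen exons, repeats and grouped loci were named after their values were seen, as were the B box search and the nested genes. The members and lists were chosen with earlier results of these data known.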

Additional observations from a re-analysis of the deposited data

How the results depend on the processing

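Under 14 alternative settings, 93 of 106 values stayed within the exact interval of the reported share or within 1.5 times the reported count. With promoter windows from 2000 bp upstream to 500 bp downstream, the exon share fell to 6.383% of 141 regions, and among regions with q of at most 0.05 it was 5.97%, where 79.1% lay in the top of both replicates. With promoter windows of every gene type except piRNA, 18.25% of the reproducible list remained in place of 30.83%, with 3.361% of it in non-coding genes and 55.46% on arms. Motifs lying wholly within 50 bp of the summit, a stricter count than by centre, gave 27.36% for GAGAGA and 12.44% for CGCACA, and within 200 bp 58.21% and 31.84%, a wider window holding more letters. With 1 replicate's own top 652 in place of the list, 28.83% to 32.21% of the list qualified, the exon share was 6.915% to 10.95%, the GAGAGA share 46.28% to 52.38% and the GCGCGC share 11.17% to 16.19%. Counting overlapping regions once, an alternative chosen after seeing the data, moved no value beyond its interval, and counting each intron once, chosen likewise, gave a median intron length of 2818 bp. No paired analysis was possible because there was 1 group. Precision is limited by 2 replicates and by depth, which is unknown, and the exact intervals cover counting error over regions only.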
